A study of Mus musculus with 3 samples.

Results

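The genes described here are the TGF-beta ligands, their 2 signalling receptors, the Smad proteins that carry the signal, and one protein that holds the latent ligand at the cell surface, as measured in mouse hippocampus. They were chosen by symbol, and 9 of the 10 symbols (Tgfb1, Tgfb2, Tgfb3, Tgfbr1, Tgfbr2, Smad2, Smad3, Smad4 and Smad7) were found among the 54532 genes of the table. The tenth, Lrrc33, is listed there under its current symbol Nrros, which RefSeq pairs with it, so that all 10 genes were described. RNA came from hippocampi of mice aged 10 months on a C57BL/6 background, with 1 library for each of 3 genotypes. WT is the wild type. PS19 carries a human mutant tau transgene that is driven by the mouse Prnp promoter, and it is used as a model of tau pathology. PS19 Zbp1+- carries the same transgene with 1 Zbp1 allele lost, as its label is written, and Zbp1 encodes a sensor of left-handed Z-form nucleic acids. The labels give neither the sex of the animals nor how many were pooled.

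TGF-beta ligands are secreted in a latent form, bound to their own propeptide. They are tethered to the matrix by LTBP proteins or to the cell surface by proteins such as Nrros. Integrins that contain the alpha v chain release latent Tgfb1. The free ligand binds the type II receptor Tgfbr2, which phosphorylates the type I receptor Tgfbr1, and this in turn phosphorylates Smad2 and Smad3. Those bind Smad4 and enter the nucleus, where Smad7 is among the genes they switch on and acts back as an inhibitor of the receptor. In the brain, microglia depend on TGF-beta signalling for their mature state, and Nrros presents latent Tgfb1 on microglia.

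The 3 ligand genes lie on different chromosomes, namely Tgfb1 (ENSMUSG00000002603) at 25687002 to 25705077 of chromosome 7, Tgfb2 (ENSMUSG00000039239) at 186622792 to 186705989 of chromosome 1 and Tgfb3 (ENSMUSG00000021253) at 86056745 to 86079041 of chromosome 12. The receptor gene Tgfbr1 (ENSMUSG00000007613) spans 47353222 to 47414931 of chromosome 4 and Tgfbr2 (ENSMUSG00000032440) spans 116084293 to 116175360 of chromosome 9. Smad3 (ENSMUSG00000032402) is at 63646767 to 63757994 of chromosome 9, and Nrros (ENSMUSG00000052384) at 32142785 to 32165594 of chromosome 16. Smad2 (ENSMUSG00000024563), Smad4 (ENSMUSG00000024515) and Smad7 (ENSMUSG00000025880) share chromosome 18, at 76241580 to 76305731, 73639009 to 73703780 and 75367529 to 75395935. These are the positions in the table, and 9 of 10 equal those of GENCODE M21 on GRCm38, all but that of Smad2. Each value covers all exons of its gene, and the files do not separate transcripts. Tgfb2 shares 124 exon bases with the antisense gene Gm29491, which had at most 9 reads in a library, and Tgfb3 shares 163 and 257 with 2 opposite-strand genes that had at most 1 read.

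With 1 library per genotype no difference below has a replicate check, no p-value was computed, and all statements describe these 3 libraries. Whole reads recovered from the table summed to between 16400328 and 17109734 per library. The reads of Zbp1 numbered 5 in WT and 91 in PS19, with 0 in PS19 Zbp1+-, where by counting error alone the FPKM could be as high as 0.0537. With 5 reads in WT, a count of 0 does not settle how many alleles were present. The PS19 Zbp1+- library held 711 reads of the Y-linked gene Ddx3y and 0 of Xist, whereas WT and PS19 held 0 reads of Ddx3y and 11062 and 13350 of Xist, so that genotype and sex cannot be told apart in its comparisons. Of 357 genes with 8 to 12 reads in both other libraries, 57 were at 0 in PS19 Zbp1+-, against 5 of 234 for WT and 1 of 244 for PS19, and a low count there is less certain than counting error states. Where values follow each other below without a library name, they are in the order WT, PS19 and PS19 Zbp1+-. Reads are as counted, so libraries are compared by FPKM or by ratios per library size. The 10 genes described here had between 132 and 1620 reads in every library.

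The promoters of both receptor genes are shown because these were the 2 genes that differed most between PS19 and WT, together with that of Tgfb2, the most abundant ligand, which did not. RefSeq windows (GRCm38.p6) from 250 bases before to 50 after the start site were found for 6 of the 10 genes. The windows below are chr4:47352972-47353271 on the plus strand for Tgfbr1, chr9:116175314-116175613 on the minus strand for Tgfbr2 and chr1:186705940-186706239 on the minus strand for Tgfb2, each written 5′ to 3′. Capitals mark matches, on either strand, to the GC box GGGCGG, the CCAAT box CCAAT, the TATA box TATAAA, the Smad box CAGACA and the PU.1 core GAGGAA.
Tgfbr1: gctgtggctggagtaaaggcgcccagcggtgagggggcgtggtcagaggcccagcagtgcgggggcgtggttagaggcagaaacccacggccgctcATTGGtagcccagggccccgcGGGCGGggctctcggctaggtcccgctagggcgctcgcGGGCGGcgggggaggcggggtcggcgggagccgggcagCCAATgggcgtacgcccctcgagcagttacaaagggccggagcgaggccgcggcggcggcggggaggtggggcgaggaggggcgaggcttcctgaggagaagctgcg
Tgfbr2: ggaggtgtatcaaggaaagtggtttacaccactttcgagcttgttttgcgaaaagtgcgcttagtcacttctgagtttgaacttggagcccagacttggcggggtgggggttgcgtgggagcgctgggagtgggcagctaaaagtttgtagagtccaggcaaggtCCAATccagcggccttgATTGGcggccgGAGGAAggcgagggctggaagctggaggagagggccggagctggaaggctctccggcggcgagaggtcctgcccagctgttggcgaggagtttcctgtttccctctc
Tgfb2: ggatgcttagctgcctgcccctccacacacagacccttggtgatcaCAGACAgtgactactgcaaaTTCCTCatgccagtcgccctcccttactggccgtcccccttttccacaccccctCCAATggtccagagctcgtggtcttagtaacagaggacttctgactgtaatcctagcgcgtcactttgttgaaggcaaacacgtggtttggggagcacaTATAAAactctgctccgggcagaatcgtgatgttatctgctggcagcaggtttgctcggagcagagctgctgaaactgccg
The Tgfbr1 window held 2 GC boxes and 2 CCAAT boxes and none of the other 3 motifs. The Tgfbr2 window held 2 CCAAT boxes and 1 PU.1 core, with no GC box. Tgfb2 had 1 match to each motif except the GC box, and of these windows it alone held the TATA box and the Smad box. Among 32851 windows of the same length, 35.7% held a GC box, 37.4% a CCAAT box, 13.6% a TATA box, 21.04% a Smad box and 28.3% a PU.1 core. None of the matches overlapped another in these 3 windows. A match is a run of letters and not a measured binding site.

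Levels are given as FPKM, fragments per kilobase of exon scaled to library size, which is the scale on which different genes can be compared. In WT the order ran from Smad3 at an FPKM of 15.4 through Smad4 at 11.5, Tgfb2 at 9.65, Smad7 at 6.72, Smad2 at 6.27, Tgfbr1 at 4.83, Tgfbr2 at 2.94, Tgfb3 at 2.78 and Nrros at 2.22 to Tgfb1 at 1.68. The exact Poisson 95% intervals of neighbours overlapped between Smad7 and Smad2 and among neighbours from Tgfbr2 down to Tgfb1. In PS19 only Smad4 and Smad3 were above Tgfbr1 at 12.3, and its interval (11.6 to 12.9) overlapped that of Smad3 at 12.6 above it. In PS19 Zbp1+- Tgfbr1 stood seventh at 3.53, below Tgfb3 at 5.27, and Smad3 led again at 18.5. Tgfb1 and Nrros held the last 2 places of the order in each library, but these places were not set apart by the intervals. The upper of the 2 genes overlapped the gene above it, Tgfb3 in WT and PS19 and Tgfbr2 in PS19 Zbp1+-.

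**Figure D1:**
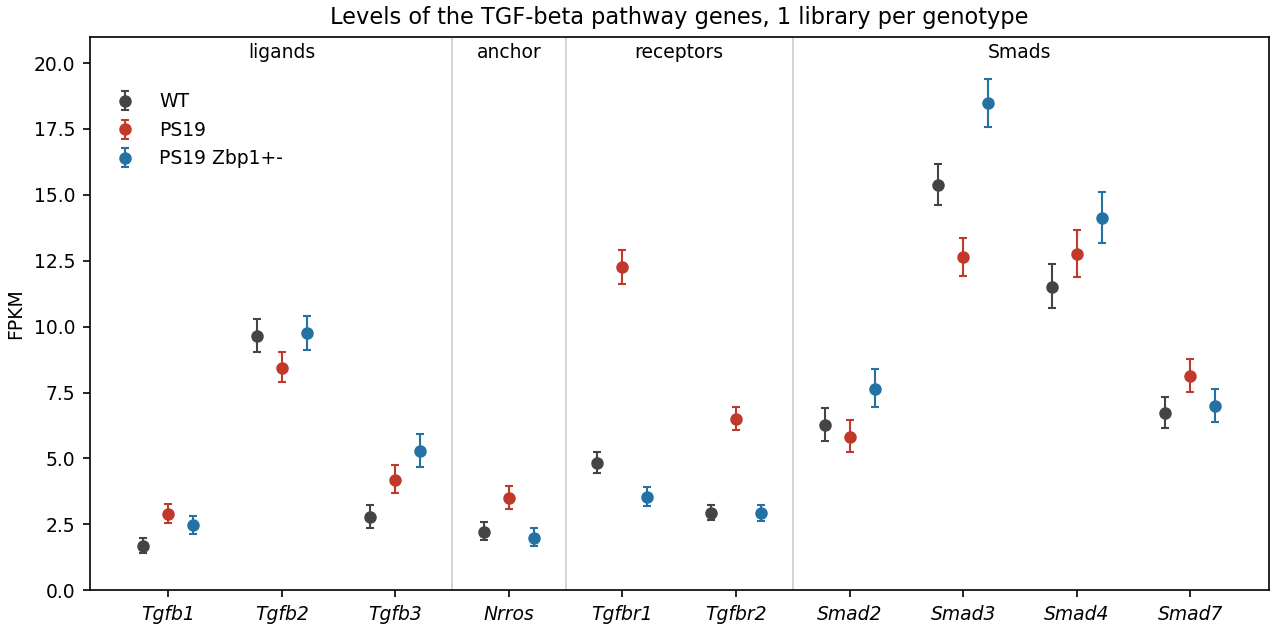
Level of each gene in FPKM (vertical axis, from 0) in the WT, PS19 and PS19 Zbp1+- libraries, 1 point per library, with bars for the exact Poisson 95% interval of its reads, which covers counting error only. Tgfbr1 stands at 12.3 in PS19 against 4.83 and 3.53, and Smad3 is lowest in PS19 at 12.6.

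Both receptors were more abundant in PS19 than in either other library. Tgfbr1, the type I receptor kinase, had an FPKM of 4.83 in WT (544 reads), 12.3 in PS19 (1384 reads) and 3.53 in PS19 Zbp1+- (365 reads). PS19 was high and the intervals of the 3 libraries did not overlap. The read ratio per library size was 2.54 for PS19 over WT, and its exact 95% interval (Clopper-Pearson), 2.30 to 2.81, covers counting error only. It was 0.288 (0.256 to 0.324) for PS19 Zbp1+- over PS19 and 0.731 (0.639 to 0.837) for PS19 Zbp1+- over WT.

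Tgfbr2, the type II receptor that binds the ligand, had an FPKM of 2.94 in WT (415 reads), 6.51 in PS19 (921 reads) and 2.91 in PS19 Zbp1+- (377 reads). Again PS19 was high, while WT and PS19 Zbp1+- overlapped. Its read ratio was 2.21 (1.97 to 2.49) for PS19 over WT, 0.447 (0.396 to 0.505) for PS19 Zbp1+- over PS19 and 0.990 (0.859 to 1.14) for PS19 Zbp1+- over WT. The difference on the log2(FPKM + 1) scale was 0.93 and so under 2-fold, because the added 1 shrinks the difference of a gene at this level, and with a pseudocount of 0.5 it was 1.03. PS19 enters both of the comparisons in which the receptors stood apart, so that these share a library.

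Within each library the receptors were not in a fixed proportion. The FPKM of Tgfbr1 over that of Tgfbr2 was 1.64 in WT (exact 95% interval 1.44 to 1.87), 1.88 in PS19 (1.73 to 2.05) and 1.21 in PS19 Zbp1+- (1.05 to 1.40). WT and PS19 overlapped, and PS19 Zbp1+- lay below both.

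The 3 ligands had 3 different patterns. Tgfb1, the isoform that Nrros anchors, had an FPKM of 1.68 in WT (146 reads), 2.89 in PS19 (252 reads) and 2.46 in PS19 Zbp1+- (196 reads). WT was low, and the other libraries overlapped. The read ratio was 1.72 (1.40 to 2.13) for PS19 over WT and 1.46 (1.18 to 1.83) for PS19 Zbp1+- over WT. Between PS19 Zbp1+- and PS19 it was 0.850 (0.701 to 1.03), and a difference was not detectable at the deposited scaling. That difference of -0.17 log2 units was -0.31 scaled by total reads. It was -0.38 when each library was rescaled to the same sum of FPKM.

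Tgfb2 had an FPKM of 9.65 in WT (964 reads), 8.44 in PS19 (845 reads) and 9.75 in PS19 Zbp1+- (894 reads). PS19 was slightly low, at a read ratio of 0.875 (0.797 to 0.960) over WT. For PS19 Zbp1+- over PS19 the ratio was 1.16 (1.05 to 1.27), and the difference of 0.19 log2 units turned to -0.07 when each library was rescaled to the same sum of FPKM.

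Tgfb3 had an FPKM of 2.78 in WT (162 reads), 4.19 in PS19 (245 reads) and 5.27 in PS19 Zbp1+- (282 reads). Unlike the receptors it was highest in PS19 Zbp1+-, at a read ratio of 1.90 (1.56 to 2.32) over WT and 1.26 (1.06 to 1.498) over PS19. The difference over PS19, 0.27 log2 units, was 0.12 scaled by total reads and 0.037 after rescaling to the same sum. PS19 over WT was 1.51 (1.23 to 1.85). Tgfb3 ranked 460 from the top among 12436 genes for PS19 Zbp1+- against WT, the highest rank of the 10 genes in that comparison. Together the ligands summed to FPKM values of 14.1, 15.5 and 17.5. The share of Tgfb2 in that sum was 68.4%, 54.4% and 55.8%, and that of Tgfb1 was 11.9%, 18.6% and 14.1% in the same order.

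Nrros, the microglial anchor of latent Tgfb1, had an FPKM of 2.22 in WT (160 reads), 3.50 in PS19 (253 reads) and 1.997 in PS19 Zbp1+- (132 reads). PS19 was high and the other 2 libraries overlapped. Its read ratio was 1.58 (1.29 to 1.94) for PS19 over WT, 0.570 (0.458 to 0.706) for PS19 Zbp1+- over PS19 and 0.899 (0.709 to 1.14) for PS19 Zbp1+- over WT.

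The Smads spanned a narrower range than the receptors. Smad3, a receptor-activated Smad and the most abundant of the 10 genes in WT and in PS19 Zbp1+-, had an FPKM of 15.4 in WT (1470 reads), 12.6 in PS19 (1210 reads) and 18.5 in PS19 Zbp1+- (1620 reads). PS19 was low and the 3 intervals did not overlap. The read ratio was 0.821 (0.761 to 0.887) for PS19 over WT and 1.46 (1.36 to 1.58) for PS19 Zbp1+- over PS19. The differences of -0.26 and 0.51 log2 units kept their signs and were -0.15 and 0.25 after rescaling to the same sum.

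Smad2, the other receptor-activated Smad, had an FPKM of 6.27 in WT (384 reads), 5.82 in PS19 (357 reads) and 7.64 in PS19 Zbp1+- (429 reads). The ratio of PS19 over WT was 0.928 (0.801 to 1.07), not detectable as a difference at this depth, and that of PS19 Zbp1+- over PS19 was 1.31 (1.14 to 1.51). The latter difference, 0.34 log2 units, was 0.18 scaled by total reads and 0.093 after rescaling to the same sum. Smad3 over Smad2 stood at 2.45 (2.19 to 2.75) in WT, 2.17 (1.93 to 2.45) in PS19 and 2.42 (2.17 to 2.70) in PS19 Zbp1+-, and these intervals overlapped.

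Smad4, the partner that both need, had an FPKM of 11.5 in WT (737 reads), 12.7 in PS19 (818 reads) and 14.1 in PS19 Zbp1+- (829 reads). Its read ratio was 1.11 (1.002 to 1.23) for PS19 over WT and 1.11 (1.004 to 1.22) for PS19 Zbp1+- over PS19, and the latter difference of 0.14 log2 units was -0.13 after rescaling to the same sum. Smad7, the inhibitory Smad, had an FPKM of 6.72 in WT (524 reads), 8.12 in PS19 (635 reads) and 6.99 in PS19 Zbp1+- (500 reads). PS19 was high, with a ratio of 1.21 (1.08 to 1.36) over WT, and PS19 Zbp1+- over PS19 was 0.860 (0.763 to 0.969). Set against Smad3, Smad7 was at 0.437 (0.395 to 0.483) in WT, 0.643 (0.583 to 0.709) in PS19 and 0.378 (0.342 to 0.419) in PS19 Zbp1+-, so that the inhibitor stood highest relative to the activator in PS19.

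**Figure D2:**
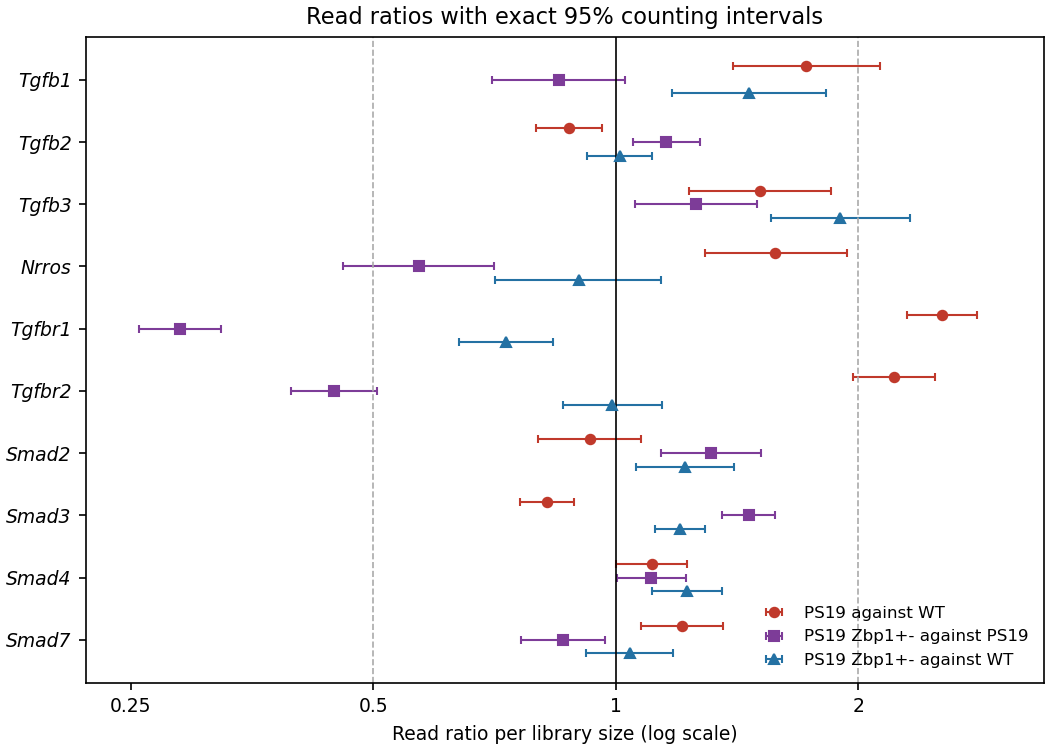
Read ratio per library size (horizontal log axis) for each gene in the 3 comparisons, with bars for the exact 95% counting interval; dashed lines mark 2-fold and the solid line marks equality. The PS19 against WT points of Tgfbr1 (2.54) and Tgfbr2 (2.21) lie right of the 2-fold line, and their PS19 Zbp1+- against PS19 points (0.288 and 0.447) lie left of the opposite line.

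Calls were made where log2(FPKM + 1) differed by 1 or more, which is 2-fold. They were made over protein-coding genes that reached an FPKM of 1 in one of the libraries compared, and all 10 genes entered each comparison. Between PS19 and WT, 1 of 10 (Tgfbr1, at 1.19) was called higher and 0 were called lower, against 2.2% and 0.291% of 12703 genes. Tgfbr1 ranked 177 from the top and Tgfbr2 ranked 317. At 1.5-fold the count was 2 of 10 higher, Tgfbr1 and Tgfbr2, and 0 lower, against 6.34% and 2.71% of all genes. The median of the 10 genes was 0.35, beside -0.03 over all genes tested, and 7 of 10 lay above 0, as did 46.3% of all genes. Over the 6 genes with a mean FPKM of at least 5 the median was 0.022.

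In PS19 Zbp1+- against PS19, 1 of 10 (Tgfbr1, at -1.55) was called lower and 0 were called higher, against 5.16% and 2% of 12772 genes. Counted from the bottom, Tgfbr1 ranked 219 and Tgfbr2, at -0.94, ranked 755. At 1.5-fold 3 of 10 were lower, now including Nrros at -0.59, and 0 higher, against 12.1% and 9.37% of all genes. The median of -0.02, beside 0.04 over all genes, describes genes that lay on both sides, 5 above 0 and 5 below, where 53.7% of all genes lay above. Set against WT, 0 of 10 passed 2-fold in PS19 Zbp1+- in either direction, where 1.07% of 12436 genes were higher and 2.28% lower. Tgfb3, at 0.73, was the 1 gene past 1.5-fold upward and 0 were past it downward, against 6.71% and 7.12% of all genes. The median was 0.15, beside 0.01 over all genes, and 7 of 10 lay above 0, as did 51% of all genes.

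Counting error alone is a weak bar in libraries of this depth. The interval of the read ratio left out 1 for 9 of 10 genes between PS19 and WT, but also for 61% of all genes tested. The same held for 9 of 10 genes and 71.7% of all genes between PS19 Zbp1+- and PS19, and for 6 of 10 genes and 66.5% between PS19 Zbp1+- and WT. PS19 was the highest library for 5 of the genes (Tgfb1, Tgfbr1, Tgfbr2, Smad7 and Nrros), against 30.6% of 12875 genes, and the lowest for 3 (Tgfb2, Smad2 and Smad3), against 37.7%. PS19 Zbp1+- was highest for the other 5, against 40.1%, and lowest for Tgfbr1, Tgfbr2 and Nrros, against 36.2%. WT was highest for 0 of the genes, against 29.3%, and lowest for 4 (Tgfb1, Tgfb3, Smad4 and Smad7), against 26.1%. This tally depended on the scaling. With each library rescaled to the same sum of FPKM, PS19 Zbp1+- was highest for 3 genes (Tgfb3, Smad2 and Smad3) and lowest for 5, now with Tgfb2 and Smad7, PS19 was highest for 6 and lowest for 1 (Smad3), and WT was highest for 1 (Tgfb2) and lowest for 4, with Smad2 in place of Smad7. Scaled by total reads, PS19 Zbp1+- was highest for 3 and lowest for 4. A 2-fold margin of PS19 over each of the others was reached by 1 of 10, Tgfbr1, and by 1.74% of all genes, and a 1.5-fold margin by 2 of 10, Tgfbr1 and Tgfbr2, and by 4.76%.

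**Figure D3:**
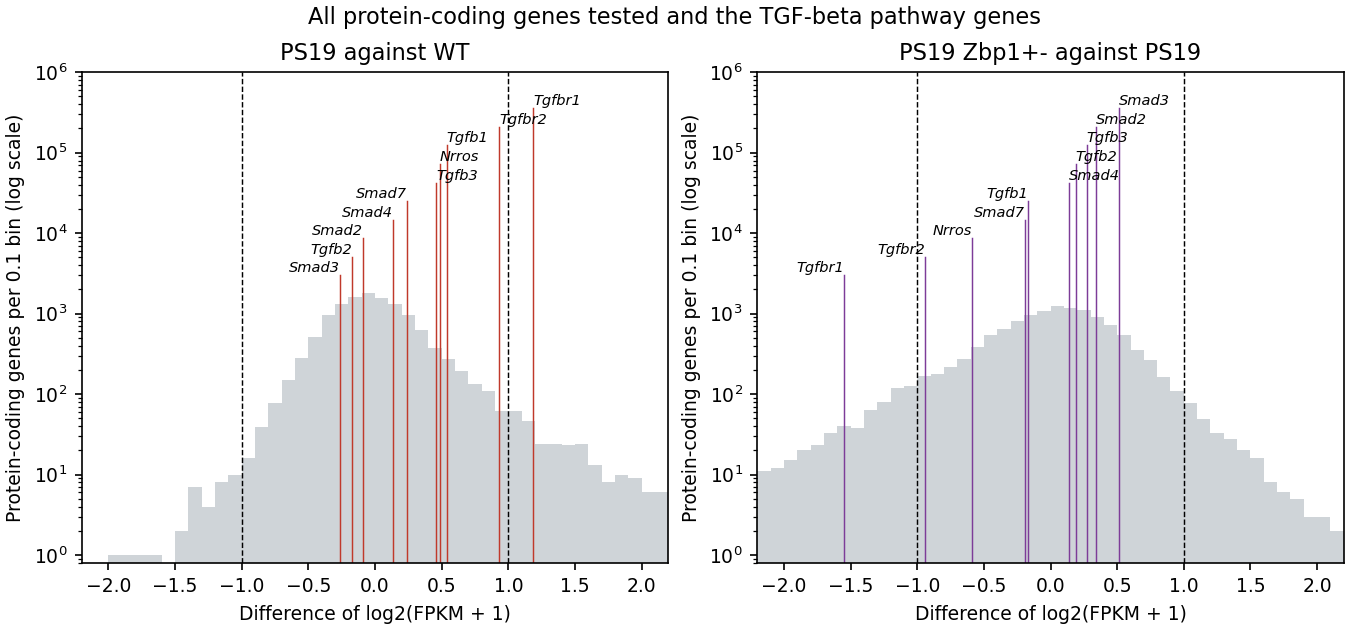
Number of protein-coding genes (vertical log axis) in bins of 0.1 of the difference of log2(FPKM + 1) (horizontal axis, shown from -2.2 to 2.2), with the 10 genes as labelled lines whose height has no meaning and dashed lines at 2-fold. Tgfbr1 lies beyond 2-fold in both panels, at 1.19 and -1.55, and Smad3 lies at the opposite edge of the 10 genes, at -0.26 and 0.51.

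Markers of several cell types moved with the receptors. The 9 microglia markers, none at 0 in any library, summed to FPKM values of 136.9, 449.4 and 141.1, and 8 of 9 were above WT in PS19. That is 3.28 times WT in PS19 and 1.03 times WT in PS19 Zbp1+-. The 6 astrocyte markers summed to 272.2, 1055 and 261.3, and the 5 oligodendrocyte markers to 685.0, 1210 and 433.8, with none of either at 0. Much of the astrocyte sum was Gfap, an intermediate filament gene that reactive astrocytes express strongly, and the other 5 markers summed to 173.9, 287.2 and 148.8, or 1.65 times WT in PS19. Without C1qa, the most abundant microglia marker, the microglia sum in PS19 was 2.75 times WT. In bulk RNA more cells of a type and more RNA per cell cannot be told apart. The part of these markers in the values of Tgfbr1, Tgfbr2 and Nrros was not tested.

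The vascular and neuronal lists differed less between the libraries. The 5 endothelial markers summed to 32.9, 33.5 and 50.4, but 1 of 5, Cldn5, was above PS19 in PS19 Zbp1+-, and the other 4 summed to 10.5, 14.4 and 12.4. The 5 mural markers summed to 65.3, 75.3 and 75.0. Neuronal markers (5 genes) summed to 654.6, 557.4 and 828.6, and to 449.0, 385.0 and 457.9 without Slc17a7. In PS19 1 of 5, Gad1, was above WT, and in PS19 Zbp1+- 4 of 5 were above PS19, all but Gad1. These sums were lowest in PS19, as were Smad3, Smad2 and Tgfb2, and the part of the markers in those genes was not tested. The 5 markers of hippocampal neurons were found in every library, with sums of 192.6, 133.0 and 155.9. Their presence alone does not show that the dissections were alike. In PS19 Zbp1+- 4 of 5 were above PS19, while Prox1 was below, at FPKM values of 8.76, 9.51 and 5.20. The 6 choroid plexus markers summed to 3395, 2156 and 25.4, and to 359.1, 314.0 and 18.4 without Ttr, and none was at 0. Choroid plexus RNA was thus far lower in PS19 Zbp1+-. As with sex, genotype and the tissue content of that library cannot be told apart in its comparisons.

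**Figure D4:**
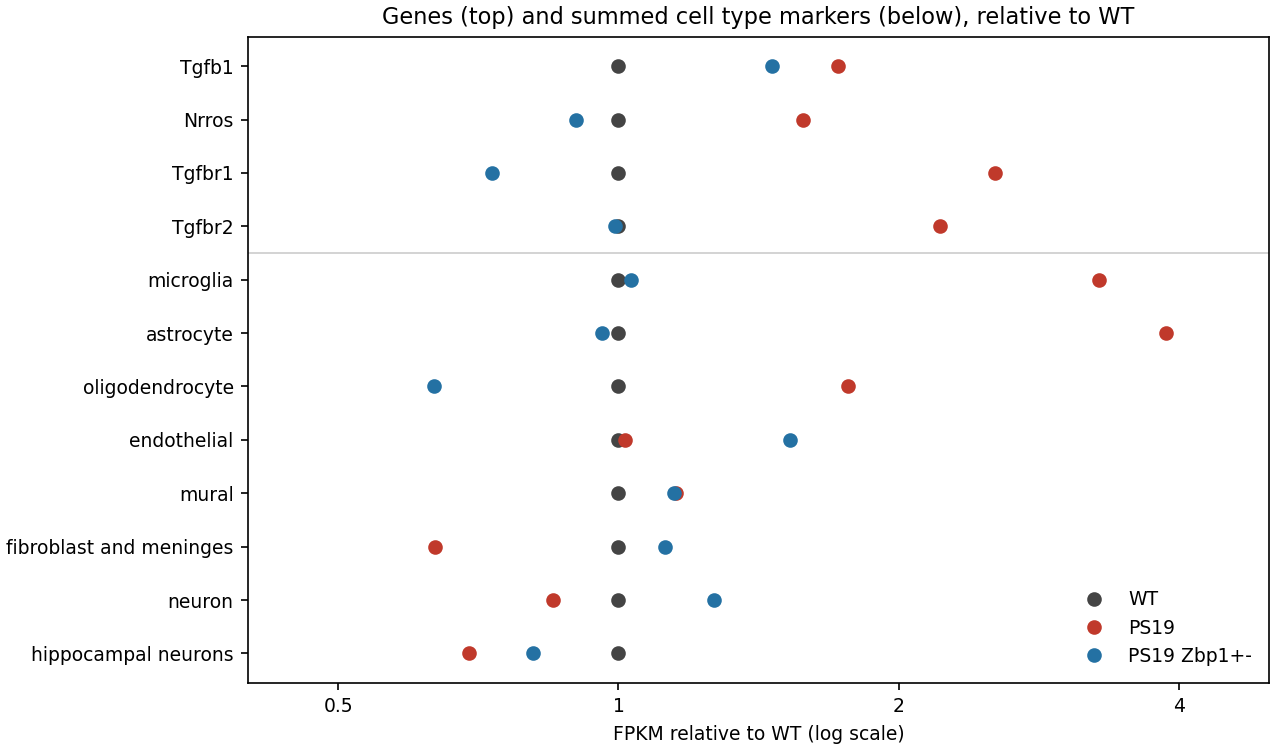
Level relative to WT (horizontal log axis) of 4 genes above the line and of the summed FPKM of cell type markers below it, 1 point per library; the choroid plexus markers are left out. In PS19 the microglia sum stands at 3.28 times WT and the astrocyte sum at 3.88 (1.65 without Gfap), Tgfbr1 and Tgfbr2 at 2.54 and 2.21, and the neuron sum at 0.851.

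Genes of the pathway beyond these 10 were grouped in 6 lists by role, and their calls are read beside the shares over all genes, 2.2% higher and 0.291% lower for PS19 against WT and 2% and 5.16% for PS19 Zbp1+- against PS19. For PS19 Zbp1+- against WT these shares were 1.07% and 2.28%. The list of latency and activation genes held 22 genes, of which 15 were tested between PS19 and WT. Among them 1 was called higher (Itgb5, an integrin chain that pairs with alpha v) and 1 lower (Dcn, a matrix proteoglycan that binds TGF-beta). Above 0 lay 13 of the 15, as did 46.3% of all genes, and the median was 0.31 beside -0.03 over all genes. Itgb5 had 1119, 2392 and 1170 reads, a ratio of 2.13 (1.99 to 2.29) for PS19 over WT. Dcn had 1140, 474 and 1910 reads, a ratio of 0.415 (0.372 to 0.462), with PS19 low. Dcn is also 1 of the fibroblast and meninges markers, and the other 5 of these summed to FPKM values of 10.03, 8.88 and 3.32, lowest in PS19 Zbp1+-, where Dcn was highest. Plau, a protease that generates plasmin, had 38, 98 and 39 reads, and its difference of 0.81 did not reach 2-fold on the log2 scale.

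In PS19 Zbp1+- against PS19, 16 genes of the latency list were tested, with 1 higher, 3 lower and a median of -0.67 beside 0.04 over all genes. That median was -0.19 with no filter on low values and -0.40 over genes with a mean FPKM of at least 5. The gene called higher was Dcn at 1.93. Those called lower were Itgb8 at -1.53, the proteoglycan Bgn at -1.29 and the thrombospondin Thbs2 at -1.17. In PS19 Zbp1+- the choroid plexus markers, and the fibroblast and meninges markers other than Dcn, were also below PS19. So were the microglia, astrocyte and oligodendrocyte markers, whose sums stood at 0.314, 0.248 and 0.358 times those in PS19. The part of all these markers in the genes called lower and in the list median was not tested. Itgb8, whose protein pairs with alpha v to release latent Tgfb1, had an FPKM of 7.07 in WT (1349 reads), 9.02 in PS19 (1725 reads) and 2.47 in PS19 Zbp1+- (433 reads). PS19 Zbp1+- was low, at a ratio of 0.274 (0.246 to 0.305) over PS19 and 0.350 (0.313 to 0.390) over WT, and Itgb8 was the 1 gene of the list called lower against WT.

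The partners of the latent complex varied less than Itgb8. Itgav, the alpha v chain, had 933, 1199 and 664 reads, a ratio of 1.28 (1.18 to 1.40) for PS19 over WT and 0.605 (0.549 to 0.666) for PS19 Zbp1+- over PS19. Ltbp3, which tethers latent TGF-beta to the matrix, had 992, 1318 and 670 reads. Its ratios for the same comparisons were 1.33 (1.22 to 1.44) and 0.555 (0.505 to 0.610). Ltbp1, another tether, had 133, 147 and 87 reads and stayed under an FPKM of 1 in each library.

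No gene of the list of 14 other receptors passed 2-fold in any comparison, and the medians were 0.07, 0.14 and 0.22 for PS19 against WT, PS19 Zbp1+- against PS19 and PS19 Zbp1+- against WT. The second of these was -0.10 after rescaling each library to the same sum. The largest difference between PS19 and WT was that of Bmpr1b, a type I BMP receptor, at 0.53, followed by Acvrl1, an endothelial type I receptor, at 0.46 and Acvr1 at -0.21. Tgfbr3, the co-receptor betaglycan, had 498, 526 and 190 reads. WT and PS19 lay together at a ratio of 1.05 (0.931 to 1.19), and PS19 Zbp1+- was low at 0.395 (0.332 to 0.467) over PS19, or -0.99 log2 units, just short of a call. The part of the choroid plexus, fibroblast and meninges, microglia, astrocyte and oligodendrocyte markers in this low value was not tested. Eng, the endothelial co-receptor, had 463, 489 and 559 reads.

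Among 22 other Smads and regulators, 19 were tested and 0 passed 2-fold in either direction in each of the 3 comparisons. The medians were 0.08, 0.10 and 0.17 in the same order of comparisons, and the second of these was -0.18 after the same rescaling. The largest differences between PS19 and WT were those of Usp9x, a deubiquitinase that acts on Smad4, at 0.60, Fkbp1a, which binds the type I receptor, at -0.48, and the coactivator Ep300 at 0.42. Of the repressors, Ski had 3294, 3731 and 4180 reads and Skil 1463, 1467 and 1478. Smurf1, a ubiquitin ligase for Smads and receptors, had 770, 980 and 1244 reads, highest in PS19 Zbp1+-, while its relative Smurf2 had 681, 662 and 575. Smad1 had 468, 568 and 333 reads, Smad5 793, 1045 and 727, and the inhibitory Smad6 91, 76 and 42.

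Of 26 symbols in the list of reported target genes 24 were in the table, where Ccn1 and Ccn2 stand under their older names Cyr61 and Ctgf. Between PS19 and WT 20 were tested, 2 were called higher and 0 lower, and the median was 0.11. The higher ones were the cell cycle inhibitor Cdkn1a at 1.92 and the protease inhibitor Timp1 at 1.59. Cdkn1a had 167, 804 and 137 reads, a ratio of 4.80 (4.06 to 5.71) for PS19 over WT, and Timp1 had 10, 61 and 13. The direct Smad target Pmepa1 had 587 reads in both WT and PS19 and 825 in PS19 Zbp1+-. Klf10, an early target, had 579, 389 and 556 reads, with PS19 low at a ratio of 0.671 (0.588 to 0.764).

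For PS19 Zbp1+- against PS19, 21 targets were tested, 0 were called higher and 7 lower, and the median was -0.0033 beside 0.04 over all genes. It was -0.29 after rescaling to the same sum and 0.13 over genes with a mean FPKM of at least 5. The 7 were Cdkn1a, Timp1, Id3, Id1, Tgfbi, Col1a2 and Timp3, of which Cdkn1a at -2.04 lay furthest and Id3 at -1.61 next. Id3, a helix-loop-helix inhibitor, had 740, 994 and 280 reads. Against WT, 4 of 19 were called lower in PS19 Zbp1+-, namely Id1, Id3, Tgfbi and Col1a2, and 0 higher, beside 2.28% and 1.07% of all genes. Col1a2, a collagen chain that is also among the fibroblast and meninges markers, had 375, 383 and 56 reads. It was low in PS19 Zbp1+-, as were the choroid plexus markers and the fibroblast and meninges markers other than Dcn. The microglia, astrocyte and oligodendrocyte markers were also below PS19 there. The part of these tissues and cell types in Col1a2 and in the other genes called lower was not tested.

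The last list was of 16 genes that microglia are reported to express under TGF-beta signalling, and 6 of them are also among the microglia markers above. Between PS19 and WT all 16 were tested, 6 were called higher, 0 lower, against 2.2% and 0.291% of all genes, and the median was 0.77 beside -0.03 over all genes. The 3 largest differences were those of Fcrls at 2.56, the fractalkine receptor Cx3cr1 at 2.18 and the complement gene C1qa at 2.07. The purinergic receptor P2ry12 did not share this, with 490, 444 and 349 reads, and Tmem119 had 440, 497 and 374, with PS19 over WT at 1.13 (0.990 to 1.28). Slc2a5, a hexose transporter, had 88, 68 and 163 reads, highest in PS19 Zbp1+- at a ratio of 2.62 (1.96 to 3.53) over PS19. Against PS19, 6 of 16 were called lower in PS19 Zbp1+- and 0 higher, with a median of -0.62, beside 5.16% and 2% of all genes. Against WT, 2 were called higher in PS19 Zbp1+-, Fcrls at 1.54 and Cx3cr1 at 1.21, and 0 lower, beside 1.07% and 2.28% of all genes.

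**Figure D5:**
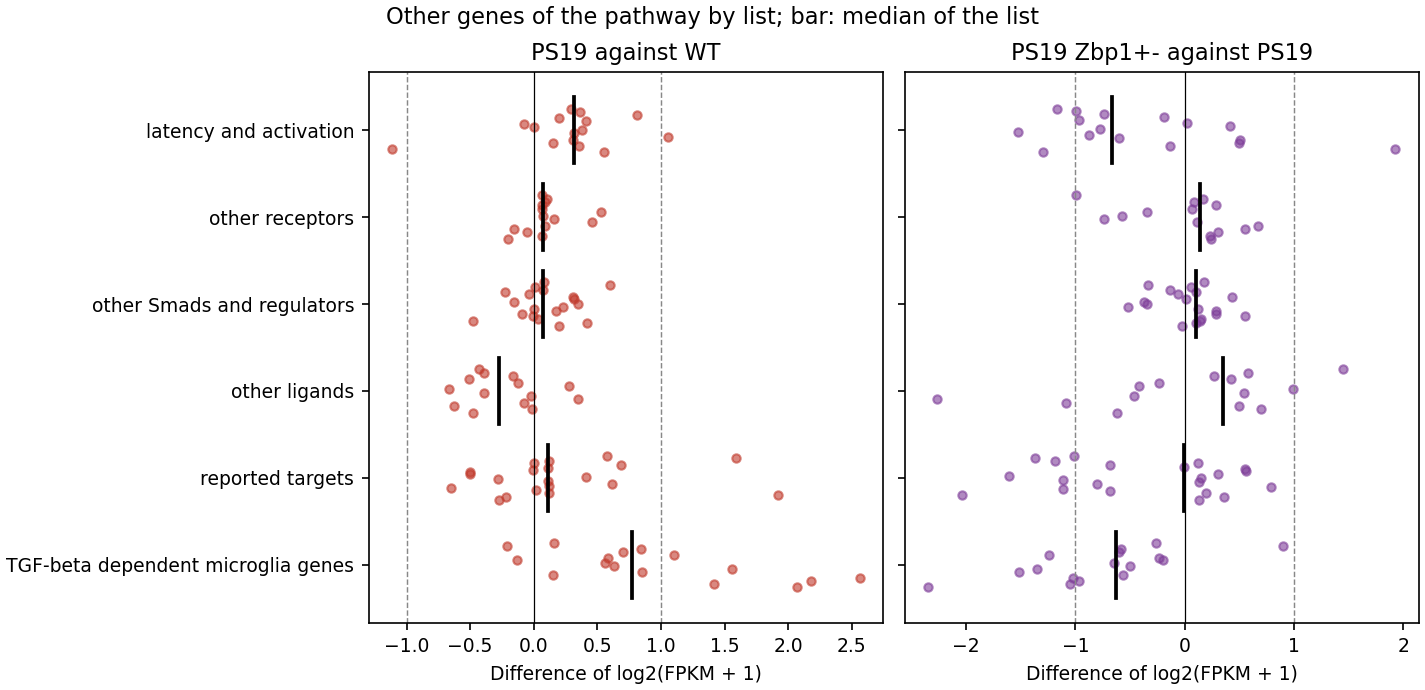
Difference of log2(FPKM + 1) (horizontal axis) of each gene that passed the filter, by list, for PS19 against WT and for PS19 Zbp1+- against PS19; the horizontal scales of the panels differ, black bars are list medians, and dashed lines mark 2-fold. The TGF-beta dependent microglia genes have medians of 0.77 and -0.62 and the latency genes 0.31 and -0.67, while the other receptors and the other Smads hold no gene past 2-fold.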

How the data were processed

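Hippocampal RNA was measured by RNA-seq in 3 libraries, 1 per genotype. Per the labels' protocols, TRIzol was used for extraction and an NEB Next Ultra kit for the libraries. The submitters' processing notes name Trim Galore 0.6.5, STAR 2.5.3a, featureCounts 2.0.4 and the build mm39. The gene positions of the table equal GENCODE M21 (GRCm38) for 98.3% of 54495 shared gene IDs, so GRCm38 is used here. Strandedness is not given in the sources used here. The authors deposited 1 table of FPKM values with gene lengths, and 0 of its columns of sample values were left out. Each FPKM times length was a whole multiple of 1 step, within 0.01, for 100% of values above 0, which gave whole reads. The steps imply library sizes of 17253479 (WT), 17287957 (PS19) and 15826984 (PS19 Zbp1+-), against totals of 16746085, 16400328 and 17109734 reads, so the deposited values carry a scaling other than the total.

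Differences were taken on log2(FPKM + 1), which understates changes of weakly expressed genes. Read ratios used the implied library sizes with exact intervals, which cover counting error only, since PCR copies are not separate molecules. The 10 genes and the lists were chosen with earlier results of these data known. Named list genes were the 3 largest differences between PS19 and WT in each list plus fixed partners; the others named were picked with their values in view, most because they were called. One gene named by this rule is not reported here. The procedure was tested on simulated data that held counting error only. Changes were planted there in genes more abundant than these 10, so the test does not show how changes at their levels are called. Alternatives covered pseudocount, filter, scaling and threshold; marker sums without the most abundant marker were added after seeing the data. The scripts ran in Python 3.11.15 with scipy 1.17.1, pandas 2.3.3, numpy 2.4.6 and, for plots, matplotlib 3.10.9.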

Additional observations from a re-analysis of the deposited data

How the results depend on the processing

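The counts of genes past 2-fold rest on a single gene, and the setting decides whether Tgfbr2 joins Tgfbr1. Between PS19 and WT the count of higher genes was 1, and it was 2 with a pseudocount of 0.1 or 0.5, after rescaling to the same sum of FPKM, or at 1.5-fold, and 0 at 4-fold. Between PS19 Zbp1+- and PS19 the count of lower genes was 1, and it was 2 with either pseudocount or after rescaling to the same sum or to total reads, 3 at 1.5-fold and 0 at 4-fold. Between PS19 Zbp1+- and WT the count of higher genes went from 0 to 1 at 1.5-fold. With a mean FPKM of at least 5 the median over the genes left was 0.022 between PS19 and WT and 0.16 between PS19 Zbp1+- and PS19, where fewer genes entered. The latter median was -0.25 after rescaling to the same sum. Over all genes that rescaling took the median from 0.04 to -0.20 between PS19 Zbp1+- and PS19, and scaling by total reads moved it to -0.12. Of the genes called, the share called higher was 27.9% as deposited, 10.5% and 14.7% under these scalings, and 44.0% with a mean FPKM of at least 5. Between PS19 Zbp1+- and WT it was 32.0%, 17.1%, 17.3% and 52.7%. Differences near 0 changed sign under rescaling to the same sum for Smad2 (PS19 against WT, 0.02), Tgfb2 (-0.07) and Smad4 (-0.13) for PS19 Zbp1+- against PS19, and Tgfb2 (-0.13) and Smad7 (-0.09) for PS19 Zbp1+- against WT. Tgfbr1 stayed between 1.19 and 1.33, and between -1.79 and -1.55, over the 7 alternatives on its value. No library could be left out and no paired analysis was possible because each genotype has 1 library.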

Other observations

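The other ligands of the superfamily (BMPs, activins, inhibins and GDFs) and their antagonists were a list of 22 genes. Between PS19 and WT 14 were tested, 0 passed 2-fold and 12 lay below 0, where 46.3% of all genes lay above 0. The median was -0.28 beside -0.03 over all genes. That median was -0.083 with no filter on low values and -0.016 over genes with a mean FPKM of at least 5. The lowest were Gdf10 at -0.67 (234 reads in WT and 114 in PS19), Bmp2 at -0.63 (72 and 25 reads) and Inha at -0.51 (494 and 341 reads). For PS19 Zbp1+- against PS19 the median was 0.35 beside 0.04 over all genes. Of the 14 tested, 1 was called higher and 2 lower, beside 2% and 5.16% of all genes. The median was 0.13 after rescaling to the same sum of FPKM, 0.028 with no filter and 0.0015 over genes with a mean FPKM of at least 5. The higher one was Nog, a BMP antagonist, with 163, 114 and 331 reads in the library order used above and a ratio of 3.17 (2.56 to 3.96) for PS19 Zbp1+- over PS19. The lower ones were Bmp6, with 486, 640 and 73 reads, and Bmp4, with 65, 60 and 7. Of the Id genes, which respond to BMPs, Id1 and Id3 were low in the same library, at ratios of 0.430 (0.350 to 0.526) and 0.308 (0.269 to 0.352) over PS19, whereas Id2 was not, at 1.11 (1.02 to 1.22). The choroid plexus markers summed to an FPKM of 25.4 there, against 2156 in PS19. The microglia, astrocyte and oligodendrocyte sums were lower there too, at 0.314, 0.248 and 0.358 times those in PS19. The part of these markers in Bmp6, Bmp4, Id1 and Id3 was not tested.

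Among 7713 other protein-coding genes with a mean FPKM of at least 5, those with the pattern most like Tgfbr2 over the 3 libraries were Mfap3l, Syt2 and Gltp, at Euclidean distances of 0.033, 0.037 and 0.046 log2 units after centring. None of the 3 is in the lists used here, and 15 genes lay within 0.1. Those most like Tgfb1 were Pdlim4, Kazn and Sfxn5, at 0.014, 0.028 and 0.030, with 37 genes within 0.1. With 3 libraries such a likeness has only 2 free values.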
